A study of Mus musculus with 16 samples.

Results

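Collagens, laminins and integrins, the genes of the fibrous and sheet-like extracellular matrix and of its main cell surface receptors, were examined in p53-/-; Myc hepatoblasts that had been in sorafenib at 8.5 µM or in DMSO for either 48 hours or 7 days. The members were taken by name from the deposited count table: 84 gene symbols of the form Col, number, a, number, of the laminin form Lama, Lamb or Lamc with a number, or beginning with Itga or Itgb (the binding partners Itgb1bp1 and Itgb1bp2 left out). A minimum of 10 counts in total over the 16 libraries left 80 members, of 20444 genes that reached the same minimum. The 4 names below it were Col9a1 with 2 counts, Col13a1 with 3, and Col22a1 and Itgb2l with 0. The members were 11 fibrillar collagen chains, 8 chains of basement membrane collagens, 22 other collagen chains, 11 laminin chains, 18 integrin alpha subunits and 8 integrin beta subunits. The name pattern also took Itgb3bp, which encodes a centromere protein, and Itgbl1, which encodes an integrin beta-like protein; neither is an integrin subunit.

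The cells are 1 line of mouse liver progenitors with p53 knocked out and Myc overexpressed, cultured as a model of hepatocellular carcinoma. Every group, the DMSO controls included, carries both alterations. Sorafenib is an inhibitor of several kinases, used against this cancer, and DMSO is its solvent. There were 4 groups of 4 libraries: DMSO for 48 hours, sorafenib for 48 hours, DMSO for 7 days and sorafenib for 7 days. Nothing in the sources used here says whether replicates were separate cultures, so p-values measure only the spread between these libraries.

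A collagen molecule is a triple helix of alpha chains. Fibrillar collagens (types I, II, III, V and XI among them) pack into banded fibrils, whereas type IV collagen forms the flat network of basement membranes, to which type XVIII is anchored. Laminins are heterotrimers of an alpha, a beta and a gamma chain and form the second network of the basement membrane, and integrins are alpha-beta heterodimers that bind these ligands outside the cell and couple them to actin inside it. In the liver, fibrillar collagen is best known as the product of hepatic stellate cells in fibrosis, and laminin accompanies progenitor cells and bile ducts.

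The 6 type IV chain genes lie in the genome as 3 pairs on opposite strands with their starts side by side. All 6 were higher with sorafenib at both times, so the sequences at their starts are shown first. In the annotation (GENCODE, GRCm39), the starts of Col4a1 and Col4a2 on chromosome 8 were 317 bases apart, those of Col4a3 and Col4a4 on chromosome 1 were 103 bases apart, and those of Col4a5 and Col4a6 on chromosome X were 1282 bases apart. The first ends of the annotated genes overlap in the former pairs and are separated by a gap in the X-linked pair. Col6a1 and Col6a2, neighbours on chromosome 10 that fell at both times, are shown beside them. The windows are RefSeq promoters on GRCm39, from 250 bases before to 50 bases after the RefSeq start, written 5′ to 3′ on the strand of the gene. A window was found for 58 of the 80 members and for 5 of the 6 type IV chains. The RefSeq start is not always the GENCODE start behind the distances above. The Col4a2 window lies wholly downstream of the GENCODE start of that gene (11362509), and the Col4a4 window lies mostly downstream of its own (82564800). Capitals mark matches on either strand, and overlapping matches run together. The letters searched were CCAAT for the box of that name, which is bound by the factor NF-Y. For the binding site of the Sp1 family, called the GC box, they were GGGCGG, and for the site of the AP-1 factors they were TGACTCA.
Col4a1 (chr8:11362777-11363076, minus strand): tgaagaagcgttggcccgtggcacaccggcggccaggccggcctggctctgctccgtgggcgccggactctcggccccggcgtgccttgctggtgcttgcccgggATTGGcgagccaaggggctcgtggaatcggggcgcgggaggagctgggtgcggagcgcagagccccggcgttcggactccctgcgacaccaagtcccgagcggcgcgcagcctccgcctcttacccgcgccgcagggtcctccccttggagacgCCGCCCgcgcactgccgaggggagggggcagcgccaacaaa
Col4a2 (chr8:11362555-11362854, plus strand): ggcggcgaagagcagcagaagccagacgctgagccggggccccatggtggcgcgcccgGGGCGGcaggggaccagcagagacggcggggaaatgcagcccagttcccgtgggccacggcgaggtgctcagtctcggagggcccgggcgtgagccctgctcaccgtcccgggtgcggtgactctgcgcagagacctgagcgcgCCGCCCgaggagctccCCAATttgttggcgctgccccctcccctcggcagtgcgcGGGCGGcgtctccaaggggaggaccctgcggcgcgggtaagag
Col4a4 (chr1:82564521-82564820, minus strand): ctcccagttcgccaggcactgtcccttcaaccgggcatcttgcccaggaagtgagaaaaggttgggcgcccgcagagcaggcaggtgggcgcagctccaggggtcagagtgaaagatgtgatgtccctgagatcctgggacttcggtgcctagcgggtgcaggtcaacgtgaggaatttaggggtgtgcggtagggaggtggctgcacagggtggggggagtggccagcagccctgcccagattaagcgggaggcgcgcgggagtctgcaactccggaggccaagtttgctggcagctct
Col4a5 (chrX:140258165-140258464, plus strand): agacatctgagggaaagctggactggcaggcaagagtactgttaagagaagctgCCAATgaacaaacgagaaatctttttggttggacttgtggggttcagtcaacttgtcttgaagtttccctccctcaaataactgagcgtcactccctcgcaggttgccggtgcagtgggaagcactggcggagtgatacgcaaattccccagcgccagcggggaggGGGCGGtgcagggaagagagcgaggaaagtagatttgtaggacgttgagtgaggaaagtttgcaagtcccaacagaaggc
Col4a6 (chrX:140257023-140257322, minus strand): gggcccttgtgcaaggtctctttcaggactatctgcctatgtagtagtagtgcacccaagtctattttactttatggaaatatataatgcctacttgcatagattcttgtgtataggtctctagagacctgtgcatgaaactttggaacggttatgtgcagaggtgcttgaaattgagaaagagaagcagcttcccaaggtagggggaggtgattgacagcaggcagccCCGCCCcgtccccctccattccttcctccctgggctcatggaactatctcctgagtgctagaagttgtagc
Col6a1 (chr10:76561829-76562128, minus strand): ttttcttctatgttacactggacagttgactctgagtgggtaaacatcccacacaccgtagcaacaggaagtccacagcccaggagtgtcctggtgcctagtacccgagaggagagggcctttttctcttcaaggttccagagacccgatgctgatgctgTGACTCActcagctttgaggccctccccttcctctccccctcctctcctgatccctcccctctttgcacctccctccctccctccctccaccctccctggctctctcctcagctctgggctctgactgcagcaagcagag
Col6a2 (chr10:76459189-76459488, minus strand): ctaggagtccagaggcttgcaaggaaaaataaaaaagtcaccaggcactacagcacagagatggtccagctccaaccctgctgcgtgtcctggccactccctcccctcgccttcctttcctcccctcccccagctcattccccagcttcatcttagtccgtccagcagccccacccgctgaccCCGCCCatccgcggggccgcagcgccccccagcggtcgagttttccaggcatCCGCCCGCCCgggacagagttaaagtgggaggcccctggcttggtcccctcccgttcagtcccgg

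The Col4a1 and Col4a2 windows overlap in part and read the shared bases from opposite strands. Both were rich in G and C (74.0% and 73.7%, against a median of 52.7% over 32851 windows of all genes and 59.0% over the 63 windows of members), the Col4a4 window had 63.3% and the Col4a5 and Col4a6 windows had 52.7% and 48.3%. A GC box was found in 36 of the 63 member windows (57.1%, against 35.7% of all windows), a CCAAT box in 17 (27.0%, against 37.4%), and an AP-1 site in 3 (4.76%, against 5.20%). The letters TATAAA, searched in the same way, were found in 4 (6.35%, against 13.6%), and the ATF response motif TGATGNAA in 0 of 63 (3.97% of all windows). None of the 5 motifs was found in the Col4a4 window. Of the windows shown, those of Col4a1, Col4a2 and Col4a5 held both a CCAAT and a GC box, and that of Col6a1 held the AP-1 site. These matches describe the letters of the windows and are no evidence of binding.

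Total counts per library ranged from 16586254 to 30828427. The markers of the labelled cell type were partly absent: Hnf4a had 0 counts in every library, Alb at most 1 and Afp at most 14, whereas Dlk1, a hepatoblast marker, had 3488 to 38122 counts and Krt19 865 to 3013. Of 10 stellate cell and fibroblast markers, 8 passed the count minimum, and their summed normalized count was 10065 to 10465 with DMSO and 54009 to 80226 with sorafenib at 48 hours, and 29805 to 33009 and 65586 to 68416 at 7 days. Acta2 averaged 4683 and 65481 at 48 hours and 24186 and 63559 at 7 days, and Tagln 146 and 2145, then 1343 and 1526. Other markers of the list had lower means with sorafenib, among them Pdgfra (1528 and 354, then 729 and 153), Pdgfrb (1668 and 977, then 718 and 470) and, at 7 days, Dcn (4890 and 993, after 2134 and 2868 at 48 hours). Lrat, which marks quiescent stellate cells, was at 0. The hepatoblast list, 8 of 11 above the minimum, was at 35003 to 36371 and 12889 to 14807 at 48 hours and at 18791 to 20605 and 6900 to 7165 at 7 days. Most of that sum was Dlk1 (means 32234 and 10444, then 16766 and 4020), and Foxa2 (211 and 722, then 480 and 862) and Sox9 (213 and 664, then 350 and 904) had higher means with sorafenib. The leukocyte list (3 of 7 above the minimum) summed to 64.7 to 159 and the endothelium list (6 of 7) to 44.3 to 236 over all libraries. Adgre1 and Cd3e were at 0, Ptprc had no more than 4 counts and Cdh5 no more than 2, whereas Cd68 had 47 to 91, Csf1r 3 to 95 and Kdr 26 to 270 (Kdr means 48.5 and 122, then 31.3 and 197). What part these marker shifts have in the values below was not tested, and in bulk RNA a change in the share of cells of a type and a change of RNA per cell cannot be told apart. In 1 library, sorafenib for 48 hours replicate 2, counts relative to the other replicates dropped from about the start of chromosome 15 on. The drop held to the end of the genome order, X included. The median ratio to the other replicates after this step was 0.604 of that before it. In any other library the largest step was 0.09 on the log2 scale. Of the members, 12 lie after the step, and 48-hour values without this library are given beside those that are named. The marker values above include this library and were not computed without it.

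Levels are given as normalized counts (counts scaled by library total and TMM factor), and levels of different genes are compared only per kilobase of exon of the canonical transcript. Averaged over the 16 libraries, the members with the highest level per kilobase were Col1a1 (9168 normalized counts per kilobase), Col3a1 (7722), Col4a1 (6038), Col5a2 (5881), Itgb1 (4463), Col4a2 (3787) and Col6a1 (3739). The laminins were led by Lamc1 (3062), Lamb1 (2586) and Lama5 (2353), the gamma, beta and alpha chain of laminin-511. The order depends on the length used: per kilobase of the union of exons, the ratio of Lama5 to Lamc1 was 1.27, 1.13, 0.969 and 1.05 in DMSO and sorafenib at 48 hours and DMSO and sorafenib at 7 days, against 0.893, 0.795, 0.679 and 0.733 with the canonical transcript. At the other end, 35 of the 80 members had a mean below 100 normalized counts. The members together took 1.38% ± 0.0202 (SD, n = 4) of all counts with DMSO and 2.08% ± 0.0661 with sorafenib at 48 hours, and 1.29% ± 0.0219 and 1.52% ± 0.0175 at 7 days. Type IV chains went from 0.173% ± 0.00346 to 0.490% ± 0.00673 of counts at 48 hours and from 0.195% ± 0.00326 to 0.483% ± 0.00777 at 7 days. Type VI chains went from 0.174% ± 0.00579 to 0.0459% ± 0.00504 and from 0.135% ± 0.00781 to 0.0144% ± 0.000118. For each of these shares, the DMSO and sorafenib libraries did not overlap at either time; the shares were not tested.

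**Figure D1:**
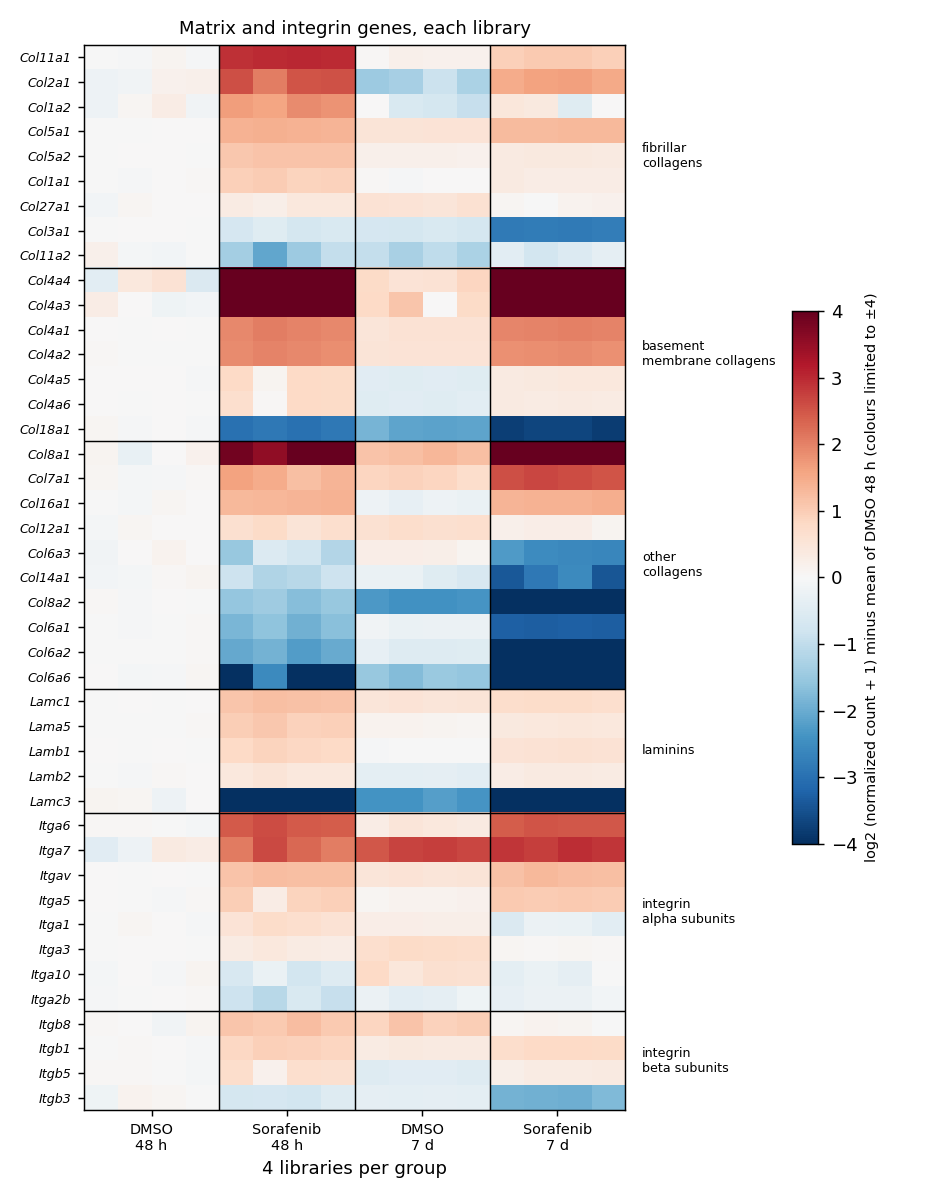
Level of the members that average 100 or more normalized counts (Itgb3bp and 1 member not reported here left out) in each of the 16 libraries, as log2(normalized count + 1) minus the mean of the DMSO 48-hour libraries; rows are genes by class, columns are libraries, and colours stop at 4 in either direction. Col4a3, Col4a4 and Col8a1 are at the red end in the sorafenib libraries, Lamc3 and Col6a2 are at the blue end in the sorafenib 7-day libraries, and replicate 2 of sorafenib at 48 hours is paler for Col4a5, Col4a6 and Itga5.

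With sorafenib at 48 hours, 40 of the 80 members were higher and 20 lower than with DMSO by edgeR's quasi-likelihood test (FDR under 0.05, Benjamini-Hochberg over 20444 genes). Of all genes tested, 54.6% passed, 26.9% higher and 27.7% lower. At 7 days, 42 members were higher and 22 lower, where 56.8% of all genes passed, 28.9% higher and 27.9% lower. Of the 45 members that average 100 or more normalized counts, 31 were higher and 14 lower at 48 hours. Of all genes at that level 76.4% passed, 40.9% higher and 35.5% lower. At 7 days 26 of the 45 were higher and 16 lower, against 76.3% of all genes at that level, 35.8% higher and 40.6% lower. The median log2 fold change of the members was 0.61 at 48 hours and 0.67 at 7 days, against -0.05 and 0.02 over all genes tested. With the members that had a group at 0 in every library (4 at 48 hours, 1 at 7 days) set at the bound that a floor of 3 counts per library gives, the medians were 0.53 and 0.64. The DMSO and sorafenib libraries did not overlap for 59 members at 48 hours and 60 at 7 days (48.0% and 56.8% of all genes). Of 11 fibrillar chains, 8 were higher and 2 lower at 48 hours and 9 and 2 at 7 days. Of 8 basement membrane chains, 7 were higher and 1 lower at both times. Of 11 laminins, 6 were higher and 2 lower at 48 hours and 8 and 3 at 7 days. Of 26 integrins, 14 were higher and 4 lower at 48 hours and 12 and 6 at 7 days. Of the 12 integrins that average 100 or more normalized counts, 9 were higher and 3 lower at 48 hours and 5 and 5 at 7 days. Of 22 other collagen chains, 5 were higher and 10 lower at 48 hours and 6 and 10 at 7 days.

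**Figure D2:**
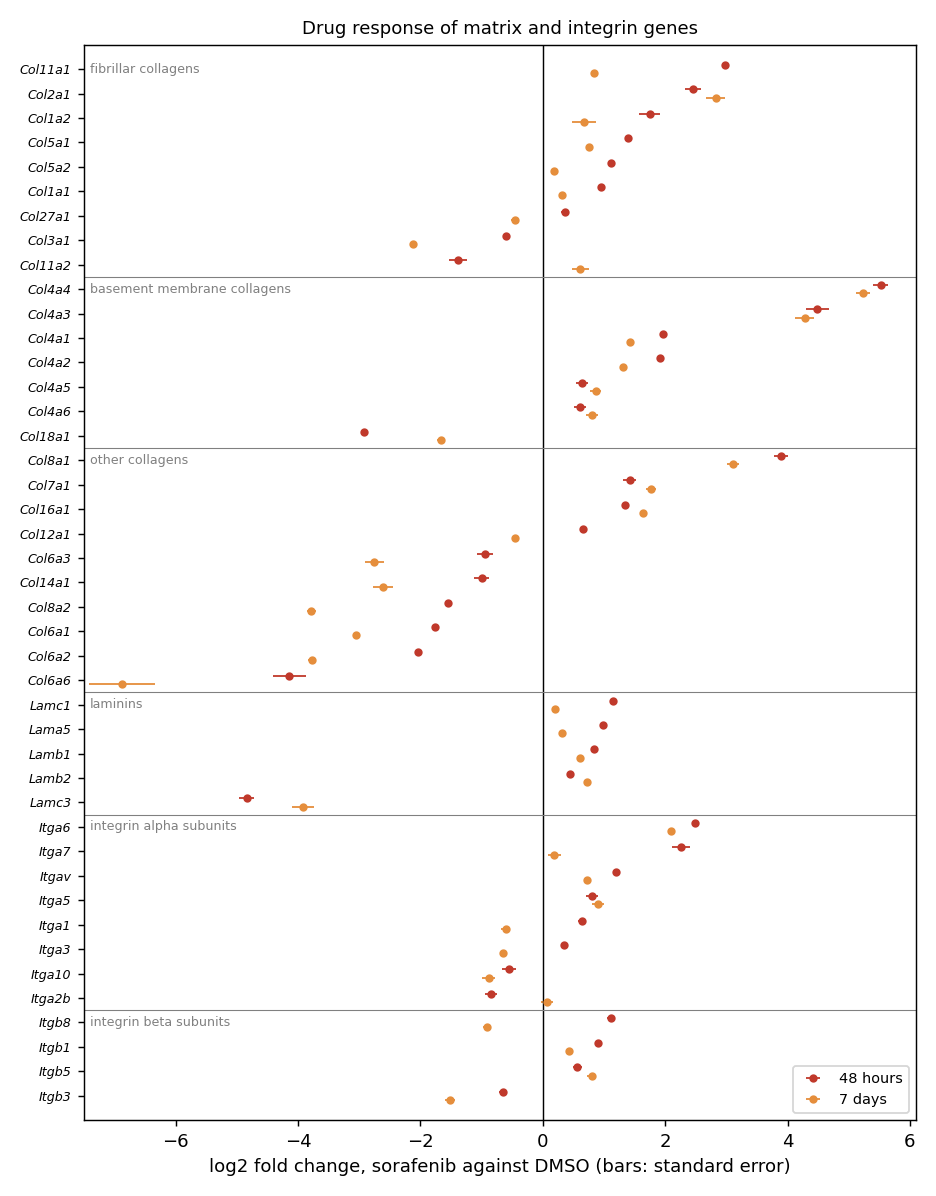
Log2 fold change of sorafenib against DMSO at 48 hours (red) and at 7 days (orange) for the members that average 100 or more normalized counts (Itgb3bp and 1 member not reported here left out), by class; bars are standard errors of the edgeR fit. The type IV chains lie right of 0 at both times and the type VI chains left of 0, and the fitted value of Col6a6 at 7 days rests on a sorafenib group with 3 counts in all.

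All 6 type IV chains were higher at both times, with a median log2 fold change of 1.94 at 48 hours and 1.37 at 7 days. All 6 average 100 or more normalized counts, and of all genes at that level 40.9% and 35.8% were higher. Col4a4 and Col4a3, chains of the network found in the kidney glomerulus, had few counts with DMSO and far more with sorafenib. Col4a4 was at 11.7, 21.7, 24.5 and 10.4 normalized counts with DMSO and at 783, 869, 776 and 714 with sorafenib at 48 hours. At 7 days it was at 28.1, 24.0, 24.2 and 29.7 with DMSO and at 974, 1047, 994 and 964 with sorafenib. All sorafenib libraries thus stood far above all DMSO libraries, by 46.0-fold at 48 hours (log2 fold change 5.52 ± 0.13 SE, FDR = 3.79e-18) and 37.6-fold at 7 days (5.23 ± 0.11, FDR = 1.45e-18). Col4a3 was at 11.7, 9.54, 8.17 and 8.64 with DMSO against 191, 279.7, 204 and 194 with sorafenib at 48 hours, and at 17.3, 21.4, 9.5 and 16.7 against 313, 294, 339 and 318 at 7 days. Replicate 2 was the highest of the sorafenib libraries at 48 hours, and the groups were far apart (log2 fold change 4.48 ± 0.19, FDR = 5.16e-14, and 4.28 ± 0.16, FDR = 6.42e-15). Exons of Col4a3 overlap exons on the opposite strand over 11.1% of their length, and the strand setting of the counting is not given in the sources used here.

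Col4a1 and Col4a2, the chains of the common type IV collagen, were among the most abundant members and also rose. Col4a1 was at 15631, 15487, 15579 and 15356 normalized counts with DMSO and at 58788, 63448, 60952 and 58480.1 with sorafenib at 48 hours. At 7 days it was at 21786, 23210.0, 23062 and 23108 with DMSO and at 59592, 61220.5, 62126 and 61186 with sorafenib. The sorafenib level was similar at both times, and the DMSO level was higher at 7 days; the fold change was 3.89 at 48 hours (log2 1.96 ± 0.03, FDR = 2.01e-20) and 2.68 at 7 days (1.42 ± 0.03, FDR = 8.40e-19). Col4a2 went from 10424 ± 260.0 (SD, n = 4) to 39244 ± 1640.2 at 48 hours and from 15079 ± 223 to 37446 ± 668 at 7 days, a 3.76-fold and a 2.48-fold difference. The ratio of Col4a1 to Col4a2 per kilobase lay between 1.47 and 1.68 in all 16 libraries. It was 1.52 ± 0.0329 with DMSO and 1.57 ± 0.0158 with sorafenib at 48 hours and 1.54 ± 0.0256 and 1.66 ± 0.0137 at 7 days, without overlap (exact two-sided permutation test, p = 0.0286 at each time, the smallest that 4 against 4 libraries allow; adjusted p = 0.0364 over 14 tests of chain ratios).

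The X-linked pair Col4a5 and Col4a6 rose less and lies in the region where replicate 2 of sorafenib at 48 hours was low. Col4a5 was at 9927, 9830.1, 9989 and 9383 normalized counts with DMSO and at 16825, 10574, 16902 and 16625 with sorafenib at 48 hours, and at 7109, 7035, 7188 and 7001 against 12559, 12735, 12988 and 13214 at 7 days. The groups did not overlap, even with the low replicate 2. The log2 fold change was 0.64 ± 0.09 (FDR = 7.82e-06) at 48 hours, 0.78 without that library (FDR = 8.17e-31), and 0.86 ± 0.10 (FDR = 1.46e-07) at 7 days. Col4a6 followed with 0.60 ± 0.10 (FDR = 2.26e-05), 0.74 without the library (FDR = 1.98e-29), and 0.81 ± 0.10 (FDR = 5.47e-07). Their ratio per kilobase was between 1.53 ± 0.0306 and 1.59 ± 0.0506 in the 4 groups, with exact p-values of 0.286 at 48 hours and 0.200 at 7 days. The ratio of Col4a3 to Col4a4 fell from 0.788 ± 0.382 with DMSO to 0.332 ± 0.0402 with sorafenib at 48 hours and from 0.744 ± 0.251 to 0.385 ± 0.0318 at 7 days (exact p = 0.0286 at each time), with few counts behind the DMSO ratios.

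**Figure D3:**
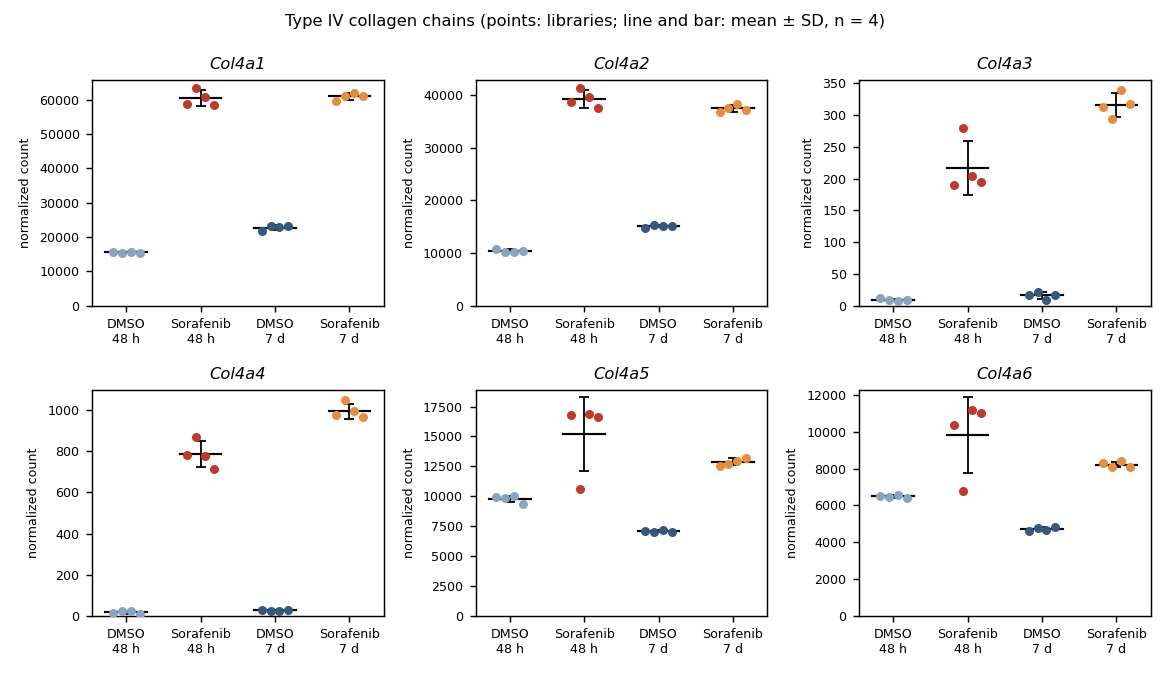
Normalized counts of the 6 type IV collagen chains in each library; points are libraries, the line and bar are the mean and SD of 4, and every axis starts at 0. Sorafenib libraries are above DMSO libraries in each panel at both times, and the low sorafenib 48-hour point of Col4a5 (10574) and Col4a6 (6767) is replicate 2.

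Col18a1, whose cleaved end is endostatin and which carries heparan sulfate chains, was the basement membrane chain that fell. It was at 8351, 7656, 7934 and 7691 normalized counts with DMSO and at 1005, 1089, 993 and 1089 with sorafenib at 48 hours, and at 2159, 1842, 1779.9 and 1843 against 583, 621, 622 and 565 at 7 days. Every sorafenib library was below every DMSO library, by 7.58-fold at 48 hours (log2 fold change -2.92 ± 0.06, FDR = 4.64e-19) and 3.19-fold at 7 days (-1.67 ± 0.06, FDR = 2.27e-15). The DMSO level itself fell between the times, from a mean of 7908 to 1906 (log2 -2.05 ± 0.05, FDR = 3.34e-16).

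Of the fibrillar chains, 8 rose at 48 hours, Col3a1 and Col11a2 fell and 1 did not pass; at 7 days Col3a1 and Col27a1 fell and the other 9 rose. Col1a1, the major chain of type I collagen, was at 41685, 40446, 42553 and 43071 normalized counts with DMSO and at 81919.9, 84703, 77870.4 and 79796 with sorafenib at 48 hours. At 7 days it was at 43101, 40780.1, 42477 and 42525 with DMSO and at 53359.9, 51954, 52041 and 51558 with sorafenib. The sorafenib libraries were higher at both times, by 1.93-fold (log2 0.95 ± 0.03, FDR = 3.68e-16) and 1.24-fold (0.31 ± 0.03, FDR = 1.57e-08). Col1a2 encodes the partner chain, of which type I collagen normally holds 1 for every pair of Col1a1 chains, and its level was far lower. It was at 73.3, 89.4, 105 and 76.9 with DMSO and 275, 257, 318 and 298 with sorafenib at 48 hours, and at 86.5, 55.7, 51.8 and 44.5 against 118, 112, 61.2 and 85.6 at 7 days, where the libraries overlapped. The log2 fold change was 1.75 ± 0.17 (FDR = 2.19e-08) and 0.67 ± 0.20 (FDR = 0.00805). Per kilobase, Col1a1 stood 449 ± 73.0 times above Col1a2 with DMSO at 48 hours and 258 ± 33.1 times with sorafenib, and 679 ± 174 and 535 ± 167 times at 7 days; over the union of all annotated exons, a scaling added after the data were seen, these ratios were 956, 549, 1448 and 1140.3.

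Col3a1, the chain of type III collagen that accompanies type I in soft tissue, went the other way. It was at 70489, 71454, 71169 and 70002 normalized counts with DMSO and at 44859, 50306, 43837 and 46649 with sorafenib at 48 hours, and at 44713, 43334, 45971 and 43930.2 against 10060.5, 10168, 10028 and 10465 at 7 days. The decrease was 1.52-fold at 48 hours (log2 -0.61 ± 0.03, FDR = 5.99e-12) and 4.37-fold at 7 days (-2.13 ± 0.04, FDR = 4.22e-20). With DMSO at 48 hours Col3a1 had the higher level per kilobase (12721, against 7072 for Col1a1), and with sorafenib at 7 days the lower (1829.7, against 8807).

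At 48 hours the largest increases of the class were those of Col5a3, Col11a1 and Col2a1. Types V and XI are minor chains that co-assemble with the major fibrillar collagens and help set the diameter of fibrils. Col11a1 was at 2116, 2093, 2309 and 2095 normalized counts with DMSO and at 16269, 16886, 17443 and 17189 with sorafenib at 48 hours, and at 2218, 2499, 2441 and 2401 against 4138, 4414, 4414 and 4143 at 7 days. The 7.87-fold difference at 48 hours (log2 2.98 ± 0.04, FDR = 1.21e-20) was 1.79-fold at 7 days (0.84 ± 0.04, FDR = 7.16e-13). Col5a2 of type V collagen went from 31628 ± 337 to 68839.8 ± 1751 at 48 hours (log2 1.12 ± 0.02) and from 36206 ± 257 to 40975 ± 515 at 7 days (0.18 ± 0.02, FDR = 1.56e-06). Col5a3 was at 3.69 ± 0.544 and 50.2 ± 17.2 at 48 hours and at 14.8 ± 0.720 and 105 ± 8.97 at 7 days (log2 3.68 ± 0.28 and 2.82 ± 0.18). Col2a1, the collagen of cartilage, was at 46.8 ± 6.96 and 256 ± 42.2 at 48 hours and at 19.4 ± 3.85 and 139 ± 7.29 at 7 days (log2 2.46 ± 0.13, or 2.56 without the low library, and 2.82 ± 0.16). Col11a2 and Col27a1 changed sign between the times. Col11a2 was at 273, 226, 219.5 and 233 with DMSO and 91.2, 55.9, 86.6 and 123 with sorafenib at 48 hours, and at 123, 96.8, 117 and 98.3 against 177, 142, 164 and 185 at 7 days (log2 -1.39 ± 0.15, or -1.25 without the low library, and 0.61 ± 0.14, FDR = 0.00102). Col27a1 was at 342 ± 17.3 and 438 ± 27.0 at 48 hours and at 504 ± 17.5 and 367 ± 21.2 at 7 days (log2 0.36 ± 0.06 and -0.46 ± 0.06).

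Type VI collagen forms beaded filaments that link basement membranes to the fibrils around them. All 6 chains were lower at 48 hours and 5 of 6 at 7 days, with a median log2 fold change of -2.27 and -3.42. Of all genes tested, 27.7% and 27.9% were lower. The 4 chains that average 100 or more normalized counts were lower at both times, where 35.5% and 40.6% of all genes at that level were. The medians include Col6a4 and Col6a5, which had 41 and 153 counts in total. Col6a1 was at 26689, 26567, 27142 and 28243 normalized counts with DMSO and at 7641, 8837, 7197 and 8501 with sorafenib at 48 hours, and at 24883, 22589.8, 22879 and 22896 against 2833, 2784, 2805 and 2786 at 7 days. The groups lay far apart, with a 3.38-fold decrease at 48 hours (log2 -1.76 ± 0.05, FDR = 1.24e-16) and an 8.32-fold decrease at 7 days (-3.06 ± 0.05, FDR = 6.12e-20). Col6a2 was at 14554, 14623, 14591 and 15261 with DMSO and 3603, 4018, 3108 and 3679.7 with sorafenib at 48 hours, and at 11703, 10323, 10421 and 10472 against 786, 761, 785 and 793 at 7 days. It fell further than Col6a1, by 4.10-fold and 13.7-fold (log2 -2.04 ± 0.06 and -3.78 ± 0.06), and the ratio of Col6a1 to Col6a2 per kilobase went from 2.68 ± 0.0279 to 3.26 ± 0.137 at 48 hours and from 3.17 ± 0.0469 to 5.22 ± 0.0878 at 7 days (exact p = 0.0286 at each time). Col6a6 was at 292, 274, 279.7 and 307 with DMSO at 48 hours and at 4.21, 48.4, 8.57 and 10.2 with sorafenib. Replicate 2 stood apart although the gene lies outside the region of low counts; the log2 fold change was -4.15 ± 0.27 (FDR = 5.68e-11) with it and -5.16 without it (FDR = 3.46e-29). At 7 days Col6a6 had 418 counts over the 4 DMSO libraries and 3 over the 4 sorafenib libraries, a 138-fold lower scaled level with a 95% interval of 46.8 to 671 (exact, counting error only).

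**Figure D4:**
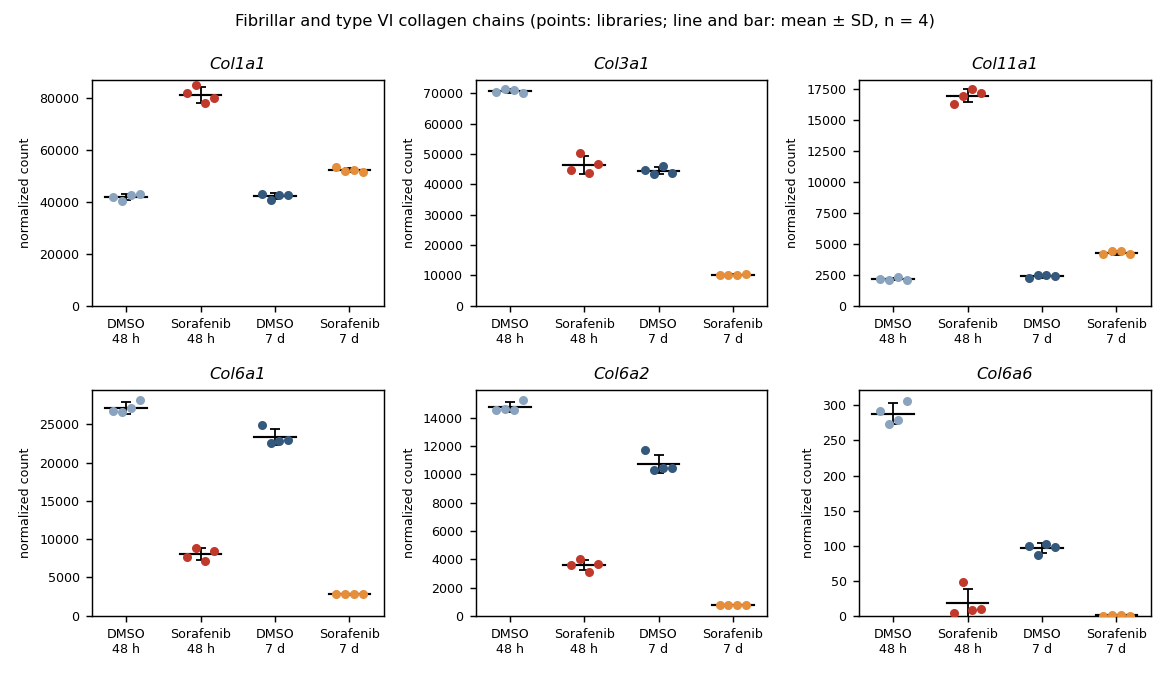
Normalized counts of fibrillar chains (top row) and type VI chains (bottom row) in each library; points are libraries, the line and bar are the mean and SD of 4, and every axis starts at 0. Col1a1 and Col11a1 are highest in the sorafenib 48-hour libraries, Col3a1 and the type VI chains are lowest in the sorafenib 7-day libraries, and 1 sorafenib 48-hour library of Col6a6 is at 48.4 where the others are at no more than 10.2.

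Among the remaining collagens, the type VIII chains, which assemble into the hexagonal lattice of Descemet's membrane and are also made by vessel wall cells, moved in opposite directions. Col8a1 was at 47.9, 36.4, 44.9 and 50.1 normalized counts with DMSO and at 655, 529, 755 and 712 with sorafenib at 48 hours, and at 98.4, 104, 112 and 105 against 865, 899, 967 and 890.3 at 7 days. It was 14.8-fold higher at 48 hours (log2 3.89 ± 0.11, FDR = 1.75e-16; 3.99 without the low library) and 8.64-fold higher at 7 days (3.11 ± 0.10, FDR = 3.14e-16). Col8a2 was at 4843, 4595, 4752 and 4676 against 1604, 1744, 1439 and 1656 at 48 hours, and at 958, 870.3, 886 and 909 against 70.9, 66.6, 62.1 and 63.9 at 7 days. It was 2.93-fold lower at 48 hours (log2 -1.55 ± 0.05, FDR = 3.24e-16) and 13.7-fold lower at 7 days (-3.78 ± 0.07, FDR = 1.76e-19), in libraries whose DMSO level had itself dropped between the times. Col16a1, a fibril-associated chain, was at 1086 ± 55.5 and 2767 ± 66.1 at 48 hours and at 915 ± 41.2 and 2852 ± 73.7 at 7 days (log2 1.35 ± 0.04 and 1.64 ± 0.04). Col7a1, which forms the anchoring fibrils beneath epithelia, was at 47.5 ± 2.36 and 129 ± 15.5, then at 85.4 ± 5.24 and 291 ± 14 (log2 1.42 ± 0.10 and 1.77 ± 0.08).

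The laminin chains of highest level all rose. Lamc1, the gamma chain common to most laminins, was at 15223, 15574, 15306 and 15783 normalized counts with DMSO and at 33508, 35475, 34592 and 33884 with sorafenib at 48 hours, and at 21711, 22707, 21874 and 21998 against 25075, 25545, 25632 and 24909 at 7 days. The difference was 2.22-fold at 48 hours (log2 1.15 ± 0.03, FDR = 3.73e-18) and 1.15-fold at 7 days (0.20 ± 0.03, FDR = 1.72e-06), without overlap at either time. Lama5 went from 19938 ± 351 to 39441 ± 1779.7 and from 21618 ± 297 to 26735 ± 534 (log2 0.98 ± 0.03 and 0.31 ± 0.03). Lamb1 went from 11415 ± 133 to 20304 ± 707 and from 11223 ± 87.7 to 17043 ± 342 (log2 0.83 ± 0.03 and 0.60 ± 0.03), and 10.6% of its exon length overlaps the opposite strand. Per kilobase, Lamb1 and Lamc1 were close to equal with DMSO at 48 hours (ratio 1.01 ± 0.0278) and Lamb1 was the lower in the other groups (0.808 ± 0.00941 with sorafenib at 48 hours, 0.696 ± 0.00864 and 0.922 ± 0.0146 at 7 days); with the union of exons the ratio was 0.779 ± 0.0214 already in the first group. Lamb2, the beta chain of synaptic and glomerular laminins, rose by 0.44 ± 0.03 and 0.73 ± 0.03 on the log2 scale.

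Lama3 encodes an alpha chain of epithelial laminins. It was at 139 ± 10.1 and 37.8 ± 5.01 at 48 hours and at 79.9 ± 4.25 and 9.27 ± 2.15 at 7 days, a decrease at both times (log2 -1.88 ± 0.12, or -1.93 without the low library, and -3.08 ± 0.16). Lamc3, a gamma chain, had the largest decrease of the laminins. It was at 643, 632, 525 and 607 with DMSO and at 25.3, 24.2, 17.1 and 19.3 with sorafenib at 48 hours, and at 114, 113, 129 and 116 against 7.87, 8.12, 10.5 and 3.93 at 7 days (log2 -4.84 ± 0.12, FDR = 2.18e-17, and -3.92 ± 0.18, FDR = 1.45e-13). Lama1, the alpha chain of embryonic basement membranes, was at 29.3, 33.8, 27.6 and 29.4 with DMSO and at 234, 115, 225 and 243 with sorafenib at 48 hours (log2 2.78 ± 0.19, or 2.95 without the low library), and at 21.4 ± 1.5 and 105 ± 10.1 at 7 days (2.29 ± 0.22).

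Integrin beta subunits set which alpha subunits can reach the surface, and Itgb1 is the common partner of those that bind collagen and laminin. Itgb1 was at 15056, 15761, 15579 and 14833 normalized counts with DMSO and at 27448, 29727, 28871 and 27874 with sorafenib at 48 hours, and at 19097, 20016, 19521 and 19518 against 24981, 26737, 26576 and 26229 at 7 days. The increase was 1.86-fold (log2 0.90 ± 0.03, FDR = 3.41e-15) and 1.34-fold (0.42 ± 0.03, FDR = 4.80e-10). Of the laminin receptors, Itga6 was at 559, 554, 536 and 509 with DMSO and 2977, 3296, 2945 and 2892 with sorafenib at 48 hours, and at 658, 752, 717 and 697 against 2866, 3108, 3006 and 3049 at 7 days. It was 5.61-fold and 4.26-fold higher (log2 2.49 ± 0.05, FDR = 8.96e-19, and 2.09 ± 0.05, FDR = 5.59e-18), with no overlap. Itga3, the laminin receptor of the highest level here, rose at 48 hours and fell at 7 days. It was at 9158, 9279, 9420.1 and 9099 against 11514, 12286, 11650.5 and 11455 at 48 hours, and at 14799.8, 15539.9, 15345 and 14958 against 9729, 9552, 9757 and 9583 at 7 days (log2 0.34 ± 0.03, FDR = 1.72e-09, and -0.65 ± 0.03, FDR = 6.93e-14). Itga7 was at 48.5 ± 13.0 and 234 ± 44.7 at 48 hours (log2 2.26 ± 0.15, FDR = 8.93e-11) and at 304 ± 24.9 and 348 ± 18.1 at 7 days, where the value of 0.19 ± 0.11 did not pass (FDR = 0.143).

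The collagen receptors had mixed values. Itga1 was at 388, 413, 396 and 378 normalized counts with DMSO and 572, 659, 623 and 593 with sorafenib at 48 hours, and at 474, 469, 459 and 466 against 261, 336, 327 and 293 at 7 days. It thus rose by 0.64 ± 0.07 on the log2 scale at 48 hours (FDR = 5.40e-08) and fell by 0.61 at 7 days (SE 0.07, FDR = 1.39e-07), in exons that overlap the opposite strand over 20.8% of their length. Itga10 was at 136 ± 7.01 and 94.2 ± 14.1 at 48 hours and at 212 ± 20.6 and 114 ± 14.7 at 7 days (log2 -0.55 ± 0.12 and -0.89 ± 0.10), and 34.5% of its exon length overlaps another gene on the same strand.

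The integrins that bind the RGD motif of fibronectin and vitronectin were split. Itgav was at 3071, 3046, 3113 and 3013 normalized counts with DMSO and at 6821, 7148, 7113 and 7023 with sorafenib at 48 hours, and at 4301, 4448, 4306 and 4423 against 6891, 7492, 7238 and 7053 at 7 days. The sorafenib libraries were higher by 2.30-fold and 1.64-fold (log2 1.2 ± 0.03, FDR = 2.28e-17, and 0.71 ± 0.03, FDR = 5.51e-14). Itga5, the fibronectin receptor, was at 1410.5, 1363, 1355 and 1421 against 2745, 1691, 2595 and 2658 at 48 hours and at 1522 ± 48.6 against 2848 ± 41.6 at 7 days. On the log2 scale it rose by 0.81 ± 0.09, or 0.94 without the low library, and by 0.90 ± 0.09. Of the beta subunits that pair with Itgav, Itgb5 rose (log2 0.56 ± 0.08, or 0.67 without the low library, and 0.80 ± 0.08), Itgb3 fell (-0.66 ± 0.07 and -1.52 ± 0.08), and Itgb8 changed sign. Itgb3 was at 545 ± 51.0 and 346 ± 24.8 at 48 hours and at 419.7 ± 7.42 and 147 ± 9.79 at 7 days. Itgb8, which with Itgav activates latent TGF-beta, was at 304, 300.2, 269 and 319 against 641, 612, 702 and 620.1 at 48 hours, and at 545, 657, 565 and 589 against 317, 325, 319 and 296 at 7 days (log2 1.11 ± 0.07, FDR = 2.07e-11, and -0.91 ± 0.07, FDR = 3.60e-10). Itga2b, the platelet fibrinogen receptor chain, was at 146 ± 3.82 and 80.3 ± 12.3 at 48 hours (log2 -0.84 ± 0.10) and did not pass at 7 days (0.07 ± 0.09, FDR = 0.552).

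Itga4, which binds fibronectin and VCAM-1 and is best known from leukocytes, was at 6.84, 6.07, 2.04 and 1.73 normalized counts with DMSO and at 102, 96.8, 103 and 99.9 with sorafenib at 48 hours, and at 5.41, 9.42, 6.04 and 19.5 against 106, 118, 109 and 108 at 7 days. All sorafenib libraries were above all DMSO libraries (log2 4.55 ± 0.27, FDR = 1.60e-11, and 3.43 ± 0.22, FDR = 4.06e-11). Its exons overlap exons on the opposite strand over 35.0% of their length, and without the strand setting these reads cannot be assigned with certainty. Of the 7 integrin subunits listed as leukocyte integrins, Itga4 not among them, none averaged 100 normalized counts over the libraries. At 48 hours 2 of the 7 were higher and 1 lower, and at 7 days 3 and 1. Of all genes, 54.6% and 56.8% passed at these times, so the counts are not read as a trait of the list. The names that are no integrin subunit gave no common direction: Itgb3bp was at 235 ± 11.8 and 151 ± 23.0 at 48 hours (log2 -0.62 ± 0.09, FDR = 8.54e-06) and at 141 ± 7.08 and 134 ± 11.4 at 7 days (-0.07 ± 0.10, FDR = 0.573), and Itgbl1 had a mean of at most 1.18 in any group.

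**Figure D5:**
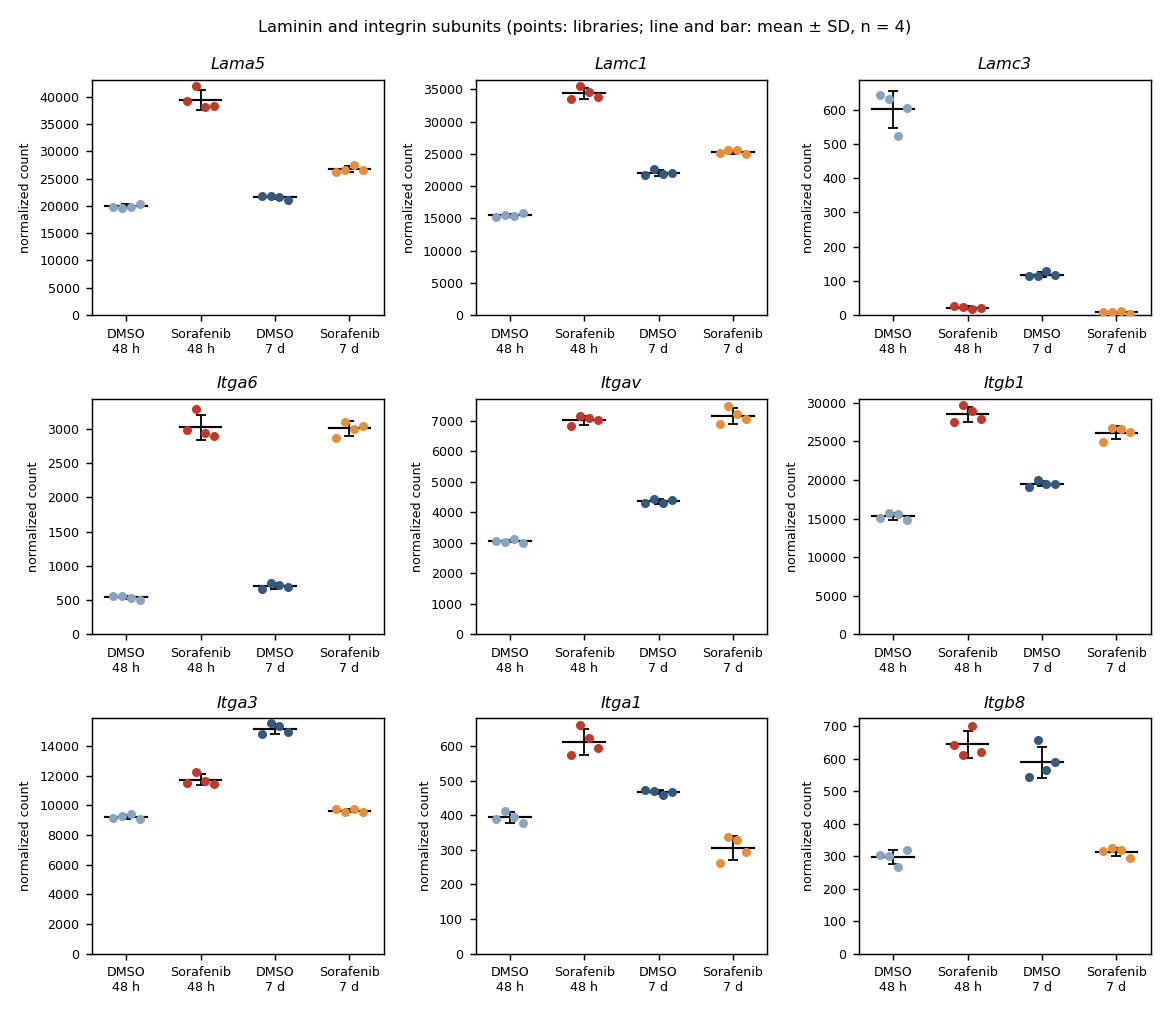
Normalized counts of laminin chains (top row) and integrin subunits (middle and bottom row) in each library; points are libraries, the line and bar are the mean and SD of 4, and every axis starts at 0. Itga6, Itgav and Itgb1 are higher in the sorafenib libraries at both times, Lamc3 is lower at both, and in the bottom row Itga3, Itga1 and Itgb8 are higher with sorafenib at 48 hours and lower at 7 days.

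The drug response at 7 days was then set against that at 48 hours in the same model, as the difference of the log2 fold changes. For 14 members it was higher at 7 days and for 29 lower, where 36.8% of all genes passed, 15.5% higher and 21.3% lower. Of the 45 members that average 100 or more normalized counts, 7 were higher and 28 lower, where 55.6% of all genes at that level passed, 18.9% higher and 36.8% lower. The split depends on the scaling: with library totals in place of TMM factors it was 17 and 29 for the members, and 4125 and 3292 for all genes against 3162 and 4353. Of the 54 members called at both times, 32 were higher at both, 16 were lower at both and 6 changed sign: Col27a1, Itga3, Itgb8, Itga1 and Col12a1 were higher and then lower, and Col11a2 the reverse (Col12a1 is named here after its values were seen). The 10 members called at neither time had means of no more than 17.6 normalized counts. How often all genes were called at both times, or changed sign, was not computed. At the single times 54.6% and 56.8% of all genes passed, so these counts are not read as a trait of the members. Among fibrillar chains, 7 of 11 had a lower response at 7 days, led by Col11a1 (difference -2.14 ± 0.06), Col3a1 (-1.52 ± 0.05) and Col1a2 (-1.07 ± 0.27), and Col11a2 had a higher one (2.00 ± 0.21). For Col3a1, which fell at both times, the lower response was a larger decrease, whereas for Col11a1 it was a smaller increase. Of the 6 type VI chains, 4 passed with a larger decrease at 7 days, among them Col6a1 (-1.30 ± 0.07) and Col6a2 (-1.74 ± 0.08), and 2 did not pass. Col8a2 had a larger decrease too (-2.23 ± 0.09). Of the type IV chains, Col4a1 (-0.54 ± 0.04) and Col4a2 (-0.60 ± 0.04) had smaller increases at 7 days, and for the other 4 the difference did not pass (Col4a3 -0.21 ± 0.32, Col4a4 -0.29 ± 0.24, Col4a5 0.22 ± 0.13, Col4a6 0.20 ± 0.14). Without the low library the last values were 0.08 for Col4a5 and 0.06 for Col4a6, which did not pass either (FDR = 0.0544 and 0.187). Among the named integrins, Itga7 (-2.07 ± 0.19) and Itgb8 (-2.02 ± 0.10) had the largest differences. Without the low library, Lama1 (-0.66, FDR = 0.0119), Itgb5 (0.12, FDR = 0.0215) and Itga4 (-1.14, FDR = 0.0300) also passed.

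The DMSO groups differed between 48 hours and 7 days by themselves, and these samples enter the differences above. Here 26 members were higher and 26 lower at 7 days, where 49.4% of all genes passed, 23.9% higher and 25.5% lower. Of the 45 at the higher level, 22 were higher and 19 lower, where 71.7% of all genes at that level passed, 38.1% higher and 33.6% lower. The larger shifts included increases of Itga7 (log2 2.65 ± 0.14), Col5a3 (1.96 ± 0.34) and Itga4 (1.26 ± 0.43), and decreases of Col8a2 (-2.38 ± 0.05), Lamc3 (-2.35 ± 0.09), Col18a1 (-2.05 ± 0.05) and Col6a6 (-1.58 ± 0.18). The Itga4 libraries overlapped between the times, at few counts. Its highest DMSO library at 7 days was at 19.5 normalized counts and the next at 9.42. Col1a1 (0.01 ± 0.03, FDR = 0.820) and Lamb1 (-0.02 ± 0.03, FDR = 0.502) did not pass. Time in culture and any other difference between the sets of libraries cannot be told apart in this contrast.

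The enzymes, partners and adaptors that work with these genes were listed by role. Of all genes tested, 26.9% were higher and 27.7% lower at 48 hours, and 28.9% and 27.9% at 7 days. Among genes that average 100 or more normalized counts, 40.9% were higher and 35.5% lower at 48 hours, and 35.8% and 40.6% at 7 days. Of 30 genes for collagen modification and processing, 19 were higher and 7 lower at 48 hours and 21 and 8 at 7 days (median log2 fold change 0.53 and 0.39). P3h2, a prolyl 3-hydroxylase that acts on type IV collagen, was at 161 ± 2.47 and 976 ± 167 at 48 hours and at 232 ± 13.9 and 912 ± 18.9 at 7 days (log2 2.61 and 1.97), and lies in the region of low counts of replicate 2. Loxl4, a lysyl oxidase that cross-links collagen, was at 8.81 ± 2.21 and 66.8 ± 13.7, then at 17.9 ± 3.00 and 251 ± 8.83 (log2 2.93 and 3.81), in the same region. Of 13 other basement membrane components, 6 were higher and 3 lower at 48 hours and 5 and 5 at 7 days. Nid2, a nidogen that bridges the laminin and type IV networks, was at 21668 ± 291 and 9692 ± 580.1 at 48 hours and at 24205 ± 521 and 1907 ± 43.6 at 7 days (log2 -1.16 and -3.67). Ntn4, a netrin that binds laminin gamma chains, was at 36.8 ± 9.59 and 337 ± 12.6, then at 61.9 ± 5.68 and 516 ± 17 (log2 3.20 and 3.06).

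The lists that follow stand against the same shares of all genes, 54.6% called in either direction at 48 hours and 56.8% at 7 days. Among genes that average 100 or more normalized counts, the shares were 76.4% and 76.3%. The lists were not split by level, so their counts are not read as a trait of the lists. Of 11 other integrin ligands in the table, 9 were higher and 1 lower at 48 hours, and 5 and 4 at 7 days. Ccn2 was at 298 ± 20.9 and 18636 ± 1562 at 48 hours and at 4085 ± 379.5 and 24739 ± 164 at 7 days (log2 5.97 and 2.6). Tnc, which encodes tenascin-C, changed sign, from 2556 ± 102 and 7953 ± 216 at 48 hours to 8360.4 ± 264 and 2371 ± 58.5 at 7 days (log2 1.64 and -1.82). Of 24 adaptors of integrin adhesions, 16 were higher and 6 lower at 48 hours and 17 and 4 at 7 days. Actn1, an actin cross-linker, was at 4610.5 ± 82.9 and 21526 ± 1623, then at 12872 ± 685 and 29763 ± 644 (log2 2.22 and 1.21). Parvb, a parvin that binds the kinase ILK at adhesions, was at 6931 ± 192 and 299 ± 53.7, then at 4490.0 ± 284 and 97.9 ± 6.39 (log2 -4.54 and -5.52), in the region of low counts of replicate 2. Of 10 other collagen and laminin receptors, 6 were higher and 3 lower at 48 hours and 4 and 5 at 7 days. Ddr2, a receptor kinase for fibrillar collagen, was at 698 ± 47.7 and 9737 ± 323, then at 1152 ± 21.1 and 9428 ± 102 (log2 3.80 and 3.03). Bcam, which binds laminin alpha 5 chains, was at 3485 ± 99.3 and 1512 ± 117, then at 4238 ± 130.3 and 542 ± 25.4 (log2 -1.21 and -2.97).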

How the data were processed

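RNA of 16 libraries (4 groups of 4) was prepared with a stranded mRNA kit and sequenced by the authors. The deposited values are counts, whole numbers of reads per gene for 40840 rows, without normalization or pooling. The submitters' processing notes name the build GRCm39, STAR 2.7.1a and featureCounts 2.0.6; the strand setting and the gene annotation of the counting are not given in the sources used here. Groups came from the sample labels.

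Genes with fewer than 10 counts in total were removed, as in the study's methods, leaving 20444. The test was edgeR 4.0.16 in R 4.3.3 (TMM normalization, quasi-likelihood test, 1 coefficient per group and no block), with Benjamini-Hochberg adjustment over all 20444 genes and calls at FDR under 0.05. The study used DESeq2 1.40.2; version 1.42.0 served as one of the alternatives. Normalized counts are counts divided by total times TMM factor, relative to its geometric mean, and are given as mean ± SD of 4 libraries. Levels per kilobase used the exon length of the Ensembl canonical transcript (GENCODE M39). Chain ratios had an exact two-sided permutation test, with a smallest possible p of 0.0286. A count of 3 was used as floor; intervals cover counting error only. Replicate pairs differed by a chi-square of 1.58 to 71.6 per gene, above the value of about 1 that counting error gives, and none was counted as a duplicate.

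Members, classes and gene lists were chosen with earlier results of these data known. Named genes were, in each class, the 3 of highest level per kilobase; the 3 largest called increases and decreases at each time among members averaging 50 or more normalized counts; Col1a1, Col1a2, Col4a1 to Col4a6 and Itgb1; and the names that are no integrin subunit. Of these, 1 is not reported here, although the counts of members include it. From the other lists, genes were taken among the 3 with the largest called change at each time. Not all of these are printed, and the printed ones are not always the largest. Left out were, among others, the basement membrane components Smoc2 (log2 4.37 at 48 hours) and Frem2 (-5.16 at 7 days). Colgalt2, of the collagen processing list, was lower at both times (-2.74 and -1.92). The steps were tested on simulated data: of 200 genes changed at 48 hours among 20091, 191 were called, with 14 false calls. The changes were balanced up and down, spared genes of low count, and no simulated library had a drop in counts. In the real data 54.6% of genes passed at 48 hours. The simulation therefore does not test the scaling or the false calls under such widespread change.

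Scaling by the union of exons was added after the data were seen. The other alternatives were DESeq2, its size factors or library totals instead of TMM factors, other filters on low counts, calls only where the log2 fold change also reached 1 in size, a fit on the compared libraries alone, the replicate number as a block, and each library left out in turn.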

Additional observations from a re-analysis of the deposited data

Results flagged for a closer look

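Response differing between the time points. The difference of the log2 fold change at 7 days and at 48 hours passed the test (edgeR, FDR under 0.05) for 32 of the 46 named genes. Of all genes tested 36.8% passed, and of those that average 100 or more normalized counts 55.6%. Many named genes were chosen for their level or the size of their called change in these data, so 32 of 46 is no result about the family. A negative difference means a smaller increase, a larger decrease or an increase that turned into a decrease at 7 days. The last held for Col27a1, Itga1, Itga3 and Itgb8. The difference was negative for the fibrillar chains Col1a1 (-0.64), Col1a2 (-1.07), Col3a1 (-1.52), Col5a2 (-0.94), Col11a1 (-2.14) and Col27a1 (-0.82), for Col4a1 (-0.54) and Col4a2 (-0.60), and for Col6a1 (-1.30), Col6a2 (-1.74), Col6a6 (-2.73), Col8a1 (-0.79) and Col8a2 (-2.23). Among laminins it was negative for Lama3 (-1.20), Lama5 (-0.68), Lamb1 (-0.23) and Lamc1 (-0.95), and among integrins for Itga1 (-1.24), Itga3 (-0.99), Itga6 (-0.40), Itga7 (-2.07), Itgav (-0.48), Itgb1 (-0.48), Itgb3 (-0.86) and Itgb8 (-2.02). It was positive for Col11a2 (2.00), Col16a1 (0.29), Col18a1 (1.25), Lamb2 (0.29), Lamc3 (0.92), Itga2b (0.91) and Itgb3bp (0.55).

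Single libraries apart from their group. Of 184 groups of 4 libraries tested with Dixon's criterion at 95%, 21 held a library that stood apart, where chance gives about 1 in 20. Sorafenib for 48 hours replicate 2 stood apart for Col2a1 (194 normalized counts), Col4a5 (10574), Itga5 (1691), Itgb5 (2579.7) and Lama1 (115), all low and all in the region where this library's counts were reduced, and it was high for Col4a3 (279.7) and Col6a6 (48.4), which lie outside it. DMSO for 7 days replicate 1 was high for Col6a1 (24883), Col6a2 (11703), Col18a1 (2159) and Itgbl1 (2.16) and low for Col4a1 (21786) and Itga5 (1449.9). The other libraries were Col5a2 in sorafenib for 48 hours replicate 1 (66215), Itgbl1 in the same library (1.40), Col11a1 in DMSO for 48 hours replicate 3 (2309), Col6a2 in DMSO for 48 hours replicate 4 (15261), Lama3 in DMSO for 48 hours replicate 1 (153), Lama5 in DMSO for 7 days replicate 4 (21176), Itgb3bp in sorafenib for 7 days replicate 3 (117) and Itgb5 in sorafenib for 7 days replicate 1 (2702).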

How the results depend on the processing

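No called value of a named member changed direction under any alternative run. Over all genes, library totals in place of TMM factors turned the balance of the response difference from 3162 higher and 4353 lower to 4125 and 3292, and for the ratios of Lama5 and of Lamb1 to Lamc1 the side of 1 depended on the exon length used. Where calls also needed a log2 fold change of 1 or more in size, counts fell: at 48 hours 13 members were lower, 1 fibrillar collagen was lower, 3 laminins were higher, and 9 integrins were higher and 1 lower; at 7 days 23 members were higher, 3 fibrillar collagens were higher and 1 lower, 4 basement membrane collagens and 4 laminins were higher, and 7 integrins were higher and 2 lower; the response difference was higher for 8 members and lower for 14, and the DMSO groups differed for 6 and 11. All other counts of members and classes stayed within 1.5 times. Leaving out each library in turn gave 39 to 41 members higher and 20 to 21 lower at 48 hours, 38 to 43 and 22 to 23 at 7 days, 13 to 15 and 28 to 32 for the response difference, and 23 to 29 and 21 to 27 between the DMSO groups. By class and time these fits gave, higher and lower, 8 and 2 fibrillar collagens at 48 hours and 8 to 9 and 2 at 7 days, 7 and 1 basement membrane collagens at both, 5 to 6 and 10, then 6 to 7 and 10 other collagens, 6 to 7 and 2 to 3, then 7 to 8 and 3 laminins, and 13 to 14 and 4 to 5, then 10 to 14 and 6 to 7 integrins. Itga7 at 7 days passed with only the libraries compared (FDR = 0.0182) and without sorafenib 48 hours replicate 2 (FDR = 0.0359). Leaving out 1 library moved the log2 fold change of Col6a6, from -4.15 to -5.16 at 48 hours without sorafenib replicate 2 and from -6.88 to -7.77 at 7 days without sorafenib replicate 3, and its response difference from -2.73 to -1.72 and -3.63; no other called named value moved by over 1.5 times.

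Same-numbered libraries did not deviate together at 48 hours (mean correlation of deviations -0.008, against 0.003 for different numbers). At 7 days the mean was 0.072 for the same number and -0.023 for different numbers. The ranges overlapped there (-0.006 to 0.128 and -0.167 to 0.115), and pairing at 7 days is not settled by these values. The replicate numbers were not taken as pairs. With the replicate block, 40 members were higher and 20 lower at 48 hours, 40 and 22 at 7 days, 13 and 28 for the response difference, and 26 and 24 between the DMSO groups.

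Of the 35 members with means below 100 normalized counts, 15 passed at 48 hours and 22 at 7 days, and the 10 that passed at neither time are among them; whether more depth would change their calls was not tested.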
